A study of Mus musculus with 16 samples.

Results

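The genes described here are 42 interferon-stimulated antiviral genes of mouse macrophages, taken as a named list: Ifnb1, the type I interferon gene itself, and genes that type I interferon is known to switch on. Each gene was represented by the brightest probe set that the platform annotation assigns to its symbol. Of the 42, 40 were measured, each by 1 probe set, among 19937 genes measured in all. Expression of Isg15 and Ifi44 was not analysed here, Isg15 because its probe set is annotated to a further gene as well, and both enter only the description of promoter sequences.

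Type I interferons are secreted proteins that bind a receptor made of Ifnar1 and Ifnar2. The receptor signals through the kinases Jak1 and Tyk2 to transcription factors including Stat2 and Irf9, which act at interferon-stimulated response elements in promoters. Macrophages make interferon-beta when lipopolysaccharide (LPS), a component of the outer membrane of Gram-negative bacteria, engages Toll-like receptor 4 and its adaptor Ticam1. They also express many antiviral genes at rest, at a level that low constitutive interferon signalling is known to maintain.

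Expression was measured on 16 arrays of bone-marrow-derived macrophages, which are macrophages grown in culture from marrow precursors, all on the 129sv background. There were 4 groups of 4 arrays: NFAT5 knockout (KO) cells stimulated with LPS, wild-type (WT) cells stimulated with LPS, unstimulated KO cells and unstimulated WT cells. NFAT5 is the transcription factor of the hypertonic stress response. The sources used here do not state which exons the altered allele lacks, how much LPS was given or for how long. They also do not say whether the arrays of 1 group stem from different animals or cultures, so p-values reflect the spread between these arrays, which may be technical. Levels are log2 values from robust multi-array average (RMA), so a difference of 1 is a 2-fold change, and since probe sets also differ in how well they bind their targets, the order of levels between genes is only approximate. In bulk samples, fewer cells carrying a transcript and less of it per cell cannot be told apart.

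Nfat5 averaged 9.09 ± 0.29 in stimulated KO cells and 10.07 ± 0.34 in stimulated WT cells (SD, n = 4), with p = 0.0286 in an exact two-sided permutation test, the smallest that 4 against 4 can give. Without LPS it averaged 9.04 ± 0.12 in KO cells and 9.39 ± 0.21 in WT cells (exact p = 0.0571). With the deleted exons unknown here, the Nfat5 signal left in KO arrays is no check of the labels. By sex-linked transcripts, the KO arrays numbered 1 to 3 in both treatments had Kdm5d above Xist, whereas the other 10 arrays had Xist above Kdm5d, so genotype and sex largely coincide and cannot be told apart in those arrays. The mean level of 9 macrophage markers lay between 12.01 and 12.60 in all arrays. For 6 plasmacytoid dendritic cell markers, a cell type known for high interferon output, the mean lay between 7.23 and 7.54. None of the markers of 8 other cell types differed between unstimulated KO and WT cells by limma's adjusted p, and neither did any macrophage marker. At an unadjusted p under 0.05, 1 macrophage marker, 1 plasmacytoid marker and at most 2 of any other list differed. With LPS, the macrophage marker Mertk was higher in KO cells (9.77 ± 0.11) than in WT cells (8.98 ± 0.35; SD, n = 4; limma adjusted p = 0.008912), and the conventional dendritic cell marker Itgax, which macrophages also express, was lower in KO cells (9.56 ± 1.17) than in WT cells (11.39 ± 0.46; adjusted p = 0.02288). No other macrophage marker and no other marker of those 8 cell types was called between stimulated KO and WT cells, and the part of these differences in the results below was not tested.

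Promoter sequences are shown for 4 members: Ifnb1, the interferon gene, which was not called with LPS, and Rsad2, Oasl1 and Ifit1, which were among the members with the largest changes and have a single listed window each. They were taken from RefSeq promoter windows of assembly GRCm38.p6, each reaching from 250 bases before to 50 bases after the annotated start. That reference is another mouse strain than the cells studied. Capitals mark matches, on either strand, to the core of the interferon-stimulated response element, which is GAAA, any 2 bases and GAAA again. The windows lie at chr4:88522745-88523044 on the minus strand for Ifnb1, chr12:26456403-26456702 on the minus strand for Rsad2, chr5:114922990-114923289 on the plus strand for Oasl1 and chr19:34640639-34640938 on the plus strand for Ifit1, and each is written 5′ to 3′ on its gene's strand.
Ifnb1: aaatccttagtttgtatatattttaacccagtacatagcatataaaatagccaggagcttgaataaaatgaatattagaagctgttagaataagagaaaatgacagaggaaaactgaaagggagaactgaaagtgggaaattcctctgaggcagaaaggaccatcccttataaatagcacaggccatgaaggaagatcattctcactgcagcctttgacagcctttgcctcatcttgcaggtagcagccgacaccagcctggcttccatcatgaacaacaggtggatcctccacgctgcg
Rsad2: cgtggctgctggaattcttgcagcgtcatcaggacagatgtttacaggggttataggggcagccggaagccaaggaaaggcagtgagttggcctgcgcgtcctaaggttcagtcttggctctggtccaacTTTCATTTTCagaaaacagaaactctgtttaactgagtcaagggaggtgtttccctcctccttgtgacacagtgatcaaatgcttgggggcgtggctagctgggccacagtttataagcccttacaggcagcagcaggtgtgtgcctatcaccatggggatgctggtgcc
Oasl1: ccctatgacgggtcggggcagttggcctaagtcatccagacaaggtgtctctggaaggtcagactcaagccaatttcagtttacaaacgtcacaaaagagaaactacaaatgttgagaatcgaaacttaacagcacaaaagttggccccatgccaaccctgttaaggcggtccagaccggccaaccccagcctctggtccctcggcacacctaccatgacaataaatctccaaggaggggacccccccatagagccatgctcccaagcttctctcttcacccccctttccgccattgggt
Ifit1: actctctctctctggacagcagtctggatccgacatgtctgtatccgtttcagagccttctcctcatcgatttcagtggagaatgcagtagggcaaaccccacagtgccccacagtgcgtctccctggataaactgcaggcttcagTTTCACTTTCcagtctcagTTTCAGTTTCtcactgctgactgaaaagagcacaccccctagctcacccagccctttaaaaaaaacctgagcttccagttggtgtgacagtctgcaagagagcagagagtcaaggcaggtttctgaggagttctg
These letters occurred once in the Rsad2 window and at 2 places in the Ifit1 window, and not in the windows of Ifnb1 and Oasl1. Isg20 and Ifit2, also among the members with the largest mean rise with LPS, have several listed windows and are not shown. None of their windows held these letters.

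A window was listed for 30 of the 42 members, some of which had several. The response element core was found in 11 of the 30 (36.7%), against 3.99% of the 27025 genes with a window. These members were Ifit1, Ifit3, Isg15, Oas3, Rsad2, Ifih1, Ddx60, Bst2, Eif2ak2, Trim21 and Trim30a. The letters TGGAAA, the core of sites bound by NFAT proteins including NFAT5, were found in 10 of the 30 (33.3%), against 23.9% of all genes. In Ifit1 and in Ddx60 that match overlaps a response element match. A STAT site, TTCNNNGAA, was found in 6 of the 30 (20%), against 9.55% of all genes. A match is a description of letters and does not show binding, and its absence from a window says only that these letters are not there.

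**Figure D1:**
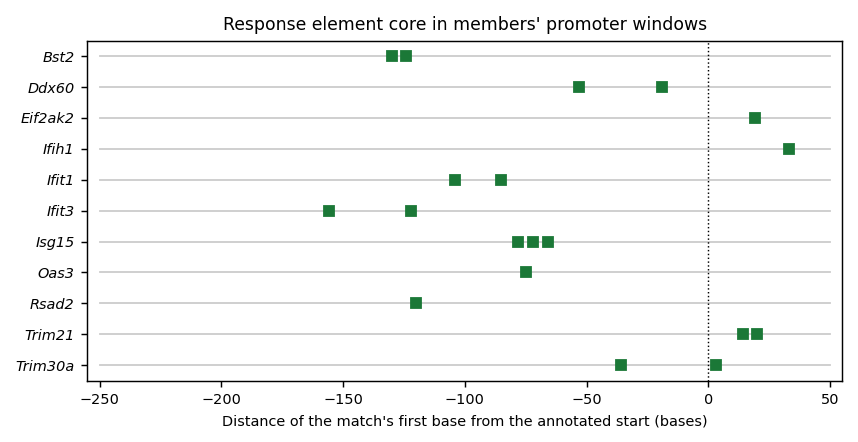
Positions of response element core matches in the RefSeq promoter windows of the 11 members that hold one, with the distance of each match's first base from the annotated start in bases on the x axis and 1 gene per line (all windows of a gene on 1 line). Isg15 has 3 matches, at -78, -72 and -66, the Trim21, Eif2ak2 and Ifih1 matches lie after the start, and Trim30a has 1 match before the start of one window and 1 after the start of another.

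With LPS, most of the antiviral genes rose in both genotypes. In stimulated KO cells 38 of the 40 members were higher than in unstimulated KO cells at an adjusted p under 0.05, where 12.0% of all genes were called higher. Differences are on the log2 scale and those of single genes carry the SE of the fit. The median difference over members was 1.69, against 0.01 over all genes. In stimulated WT cells 33 were higher than in unstimulated WT cells, where 14.0% of all genes were called higher, and the median was 0.92, against 0.06. A rise of at least 2-fold was seen for 34 members in KO cells and for 16 in WT cells, and 8 members rose at least 8-fold in KO cells. No member was called lower with LPS in either genotype, nor had any a negative difference at an unadjusted p under 0.05, where 12.7% of all genes were called lower in KO cells and 16.8% in WT cells. All stimulated arrays lay above all unstimulated ones for 38 members in KO cells, where 12.4% of all genes separated upwards, and for 28 in WT cells, where 16.2% did.

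The genotypes differed in the resting level. In unstimulated KO cells 18 members were lower than in unstimulated WT cells, where 0.863% of all genes were called lower, and 0 were called higher, where 0.140% of all genes were. The median difference over members was -0.69, against 0.00 over all genes, and 38 of the 40 differences were negative, 37 of them at an unadjusted p under 0.05. All KO arrays lay below all WT arrays for 24 members, where 2.86% of all genes separated in that direction, and 0 members had all KO arrays above, where 1.47% of all genes did. With the replicate number as a block, 24 members were called lower, where 1.64% of all genes were called in either direction. The count moved with single arrays: without KO array 1 they numbered 3, without KO array 3 they numbered 6, without WT array 1 they numbered 4 and without WT array 2 they numbered 5. Fitting the 8 unstimulated arrays alone left Usp18 as the 1 call, where 0.456% of all genes were called in either direction. A sex term left Ifih1 and Usp18, where 1.8% of all genes were called in either direction, against 1% without that term. Among the 10 arrays with Xist above Kdm5d each KO group is 1 array, so a count of calls there rests on the spread of the WT arrays. The median over members cannot move with the block or the fit of 8 arrays. It stayed negative without each single array named above, and was -0.59 both with the sex term and among those 10 arrays. In the KO groups only the arrays numbered 4 have Xist above Kdm5d, so the last 2 values are not separate results.

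With LPS, no member differed between genotypes by the same test. The count was 0 of 40 in stimulated KO against stimulated WT cells, where 1.80% of all genes were called higher and 1.26% lower. The unadjusted p was under 0.05 for 9 members that were higher in KO and for 1 that was lower, and the median over members was 0.17, against -0.01 over all genes. All stimulated KO arrays lay above all stimulated WT arrays for Mx2, Herc6, Parp9 and Tor3a, 4 members, where 4.15% of all genes separated in that direction. Fitting the 8 stimulated arrays alone called Mx2 and Tor3a higher in KO (2 members), and adding the replicate number as a block to that fit gave 9: Ifit1, Ifit2, Ifit3, Mx1, Mx2, Rsad2, Cmpk2, Daxx and Tor3a. A single array also moved the count from 0: Daxx was called without stimulated WT array 4, Tor3a without unstimulated WT array 1 and Mx2 without unstimulated WT array 4.

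The LPS response was larger in KO than in WT cells for 39 of the 40 members, Trim25 being the exception. The difference in response, KO minus WT, passed the test for 16 members, where 0.988% of all genes were called for a larger response in KO, and its median over members was 0.79, against -0.02 over all genes. It uses the same arrays as the comparisons above and equals the stimulated genotype difference minus the resting one. The 16 were Ifih1, Ifit1, Ifit2, Ifit3, Mx1, Mx2, Cmpk2, Usp18, Herc6, Dtx3l, Parp9, Parp10, Sp100, Daxx, Tor3a and Rtp4. Their number was 7 without stimulated KO array 1, 10 without array 2, 4 without array 3 and 5 without array 4. It was 5 without stimulated WT array 1 or 2, 5 without unstimulated KO array 1 or 3, 6 without unstimulated WT array 1 and 5 without unstimulated WT array 2. A sex term cannot move the difference in response, since KO arrays 1 to 3 had Kdm5d above Xist in both treatments. It changes only the spread. With that term the number of calls was 18, including all 16. Among the 10 arrays with Xist above Kdm5d it was 0, with a median over members of 0.81 and 39 of 40 differences positive, and 4 of all 19937 genes were called there. Each KO group is 1 array in that setting, so its spread is assumed to be that of the WT arrays.

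**Figure D2:**
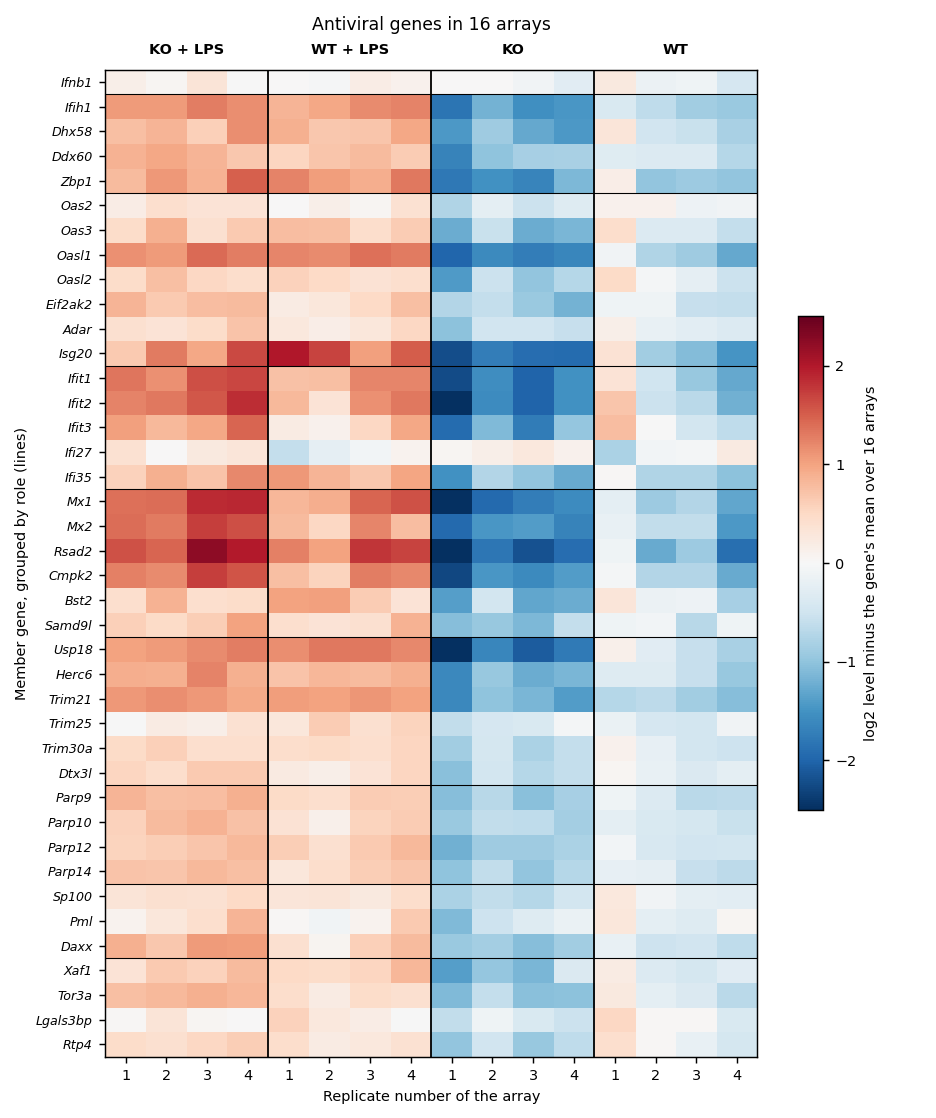
Level of each of the 40 measured members in each array, as the log2 level minus that gene's mean over the 16 arrays (colour), with arrays in columns by group and replicate number (KO + LPS and WT + LPS are the stimulated groups) and members in rows by role. The stimulated arrays are above the mean for most rows, KO array 1 is the lowest of the 16 for 34 members, and WT array 1 is the highest of the 8 unstimulated arrays for 35.

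The spread between arrays was itself uneven. The median of the members' deviations from their own means was 0.68, 0.80, 0.77 and 0.84 in stimulated KO arrays 1 to 4 and 0.55, 0.47, 0.61 and 0.76 in stimulated WT arrays 1 to 4. It was -1.30, -0.80, -1.05 and -0.92 in unstimulated KO arrays and 0.08, -0.33, -0.48 and -0.64 in unstimulated WT arrays. WT array 1 thus stood nearest to the stimulated arrays, and for 11 members its level reached that of a stimulated WT array. The median SD of the members was 0.157 in stimulated KO, 0.176 in stimulated WT, 0.255 in unstimulated KO and 0.330 in unstimulated WT cells, against 0.142, 0.133, 0.166 and 0.157 over all genes in the same groups. Leaving WT array 1 out, 24 members had all KO arrays below all remaining WT arrays, a count that leaving out an array cannot lower. Whether any cause of the level in WT array 1 bears on these differences was not tested.

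Ifnb1, which encodes the secreted ligand interferon-beta, was near the bottom of the scale. It read 5.78, 5.69, 5.97 and 5.64 in stimulated KO arrays and 5.65, 5.61, 5.84 and 5.76 in stimulated WT arrays. Without LPS it read 5.65, 5.65, 5.56 and 5.36 in KO arrays and 5.89, 5.50, 5.54 and 5.24 in WT arrays. All 4 groups overlapped, and its mean over the 16 arrays stood at the 20.8th percentile of genes. The difference with LPS was 0.22 ± 0.12 in KO cells (adjusted p = 0.2466) and 0.17 ± 0.12 in WT cells (adjusted p = 0.3124). Between unstimulated KO and WT cells it was 0.01 ± 0.12 (adjusted p = 0.9889). RMA compresses changes of transcripts this dim.

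The sensors of viral nucleic acid were Ifih1, Dhx58, Ddx60 and Zbp1. All 4 rose with LPS in both genotypes, with a median difference of 2.34 in KO cells and 1.48 in WT cells, and 3 of the 4, all but Zbp1, were lower in unstimulated KO than in unstimulated WT cells. Zbp1, a sensor of Z-form nucleic acid that triggers cell death, read 11.20, 11.49, 11.29 and 11.90 in stimulated KO arrays and 11.65, 11.45, 11.32 and 11.72 in stimulated WT arrays. In unstimulated cells it read 8.62, 8.89, 8.77 and 9.29 in KO arrays and 10.58, 9.43, 9.51 and 9.42 in WT arrays. WT array 1 stood more than 1 log2 unit above the other unstimulated WT arrays, and no unstimulated KO array reached any WT array. Zbp1 rose by 2.58 ± 0.22 in KO cells (5.97-fold, adjusted p = 5.001e-08) and by 1.80 ± 0.22 in WT cells (adjusted p = 3.481e-06). Its resting difference of -0.84 ± 0.22 did not pass the test (adjusted p = 0.09692).

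Ifih1 encodes MDA5, a cytoplasmic receptor for long double-stranded RNA. It was lower in unstimulated KO cells (log2 difference -0.80 ± 0.14, adjusted p = 0.005545), a call that held in each of the 16 fits that left out 1 array. The stimulated genotypes differed by 0.08 ± 0.14 (adjusted p = 0.9878). Its response was larger in KO by 0.88 ± 0.20 (adjusted p = 0.0339), a call lost in 11 of those 16 fits. For Dhx58, a regulatory relative of MDA5, the resting difference was -0.88 ± 0.19 (adjusted p = 0.02795), a call lost in 5 of the 16 fits. Ddx60, a helicase that assists RNA sensing, differed at rest (log2 difference -0.66 ± 0.15, adjusted p = 0.04668), and this call was lost in 12 of the 16 fits. In these counts and those below, leaving out a stimulated array cannot move a resting difference. Such a fit changes only the spread it is tested against.

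The enzymes acting on RNA comprised Oas2, Oas3, Oasl1, Oasl2, Eif2ak2, Adar and Isg20. All 7 rose with LPS in KO cells and 6 rose in WT cells, Oas2 being the exception. In unstimulated KO cells 3 of the 7 were lower than in WT cells, and none differed between the stimulated genotypes. Isg20, an exonuclease that degrades single-stranded RNA, read 10.55, 11.20, 10.86 and 11.54 in stimulated KO arrays and 11.88, 11.59, 10.91 and 11.41 in stimulated WT arrays. Its unstimulated levels were 7.67, 8.16, 7.99 and 7.97 in KO arrays and 10.25, 9.02, 8.81 and 8.42 in WT arrays. No KO array reached a WT array at rest, but WT array 1 stood far above the other 3, and the resting difference of -1.17 ± 0.30 did not pass (adjusted p = 0.08326). With LPS it rose by 3.09 ± 0.30 in KO cells (8.49-fold, adjusted p = 2.452e-07) and by 2.32 ± 0.30 in WT cells (adjusted p = 6.122e-06), and the difference in response did not pass (adjusted p = 0.6045).

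Oasl1, known in mice as a repressor of Irf7 translation, read 11.36, 11.29, 11.63 and 11.49 in stimulated KO arrays and 11.43, 11.40, 11.60 and 11.53 in stimulated WT arrays. At rest it read 8.23, 8.63, 8.49 and 8.58 in KO arrays and 10.13, 9.46, 9.34 and 8.95 in WT arrays. The stimulated genotypes overlapped fully, whereas every unstimulated KO array was below every unstimulated WT array. It rose by 2.96 ± 0.17 in KO cells (7.79-fold, adjusted p = 3.477e-10) and by 2.02 ± 0.17 in WT cells (4.06-fold, adjusted p = 3.304e-08). The resting difference was -0.99 ± 0.17 (adjusted p = 0.005764), and it held in each of the 16 fits that left out 1 array. Oas2, a synthase of the oligoadenylate messenger that activates RNase L, rose in KO cells by 0.79 ± 0.12 (adjusted p = 3.276e-05), while in WT cells its difference was 0.14 ± 0.12 (adjusted p = 0.3992). Oas3, another such synthase, was lower in unstimulated KO cells (log2 difference -0.83 ± 0.19, adjusted p = 0.0457), as was Oasl2 (log2 difference -0.84 ± 0.19, adjusted p = 0.03474), calls lost in 13 and in 6 of the 16 fits.

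Among the IFIT and IFI proteins, Ifit1, Ifit2, Ifit3 and Ifi35 rose with LPS in KO cells and Ifit1, Ifit2 and Ifi35 rose in WT cells. The IFIT proteins bind foreign RNA or its translation machinery. All 3 Ifit genes were lower in unstimulated KO than in unstimulated WT cells, and all 3 had a larger LPS response in KO. Ifit2 read 11.89, 11.96, 12.19 and 12.49 in stimulated KO arrays and 11.45, 10.99, 11.79 and 11.97 in stimulated WT arrays. In unstimulated cells it read 7.88, 9.07, 8.64 and 9.12 in KO arrays and 11.33, 10.11, 9.97 and 9.44 in WT arrays. WT array 1 lay above stimulated WT array 2, so the WT groups overlapped, whereas the unstimulated KO arrays lay below all others. It rose by 3.46 ± 0.33 in KO cells (10.99-fold, adjusted p = 1.774e-07) and by 1.34 ± 0.33 in WT cells (2.52-fold, adjusted p = 0.00373). The resting difference was -1.54 ± 0.33 (adjusted p = 0.02678) and the difference in response 2.12 ± 0.46 (adjusted p = 0.03145), and this response call was lost in 7 of the 16 fits that left out 1 array.

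Ifit3 read 12.12, 11.91, 12.06 and 12.55 in stimulated KO arrays and 11.31, 11.20, 11.61 and 12.06 in stimulated WT arrays. At rest it read 9.17, 9.998, 9.35 and 10.13 in KO arrays and 11.86, 11.08, 10.63 and 10.47 in WT arrays. Unstimulated WT array 1 was higher than 3 of the 4 stimulated WT arrays. In KO cells Ifit3 rose by 2.497 ± 0.27 (5.64-fold, adjusted p = 1.104e-06), while the WT difference was 0.54 ± 0.27 (adjusted p = 0.1592). Its response differed by 1.96 ± 0.39 (adjusted p = 0.01787), a call kept in each of the 16 fits that left out 1 array, and its resting difference was -1.35 ± 0.27 (adjusted p = 0.01862).

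Ifit1 read 12.31, 12.12, 12.59 and 12.64 in stimulated KO arrays and 11.69, 11.71, 12.18 and 12.18 in stimulated WT arrays. Without LPS it read 8.72, 9.42, 8.97 and 9.46 in KO arrays and 11.30, 10.47, 10.02 and 9.70 in WT arrays. The resting groups did not overlap, and the stimulated genotypes did. Ifit1 rose by 3.27 ± 0.26 in KO cells (9.65-fold, adjusted p = 1.78e-08) and by 1.57 ± 0.26 in WT cells (2.97-fold, adjusted p = 9.62e-05). It was lower at rest (log2 difference -1.23 ± 0.26, adjusted p = 0.02517), and its response was larger in KO by 1.70 ± 0.37 (adjusted p = 0.02962), a call lost in 8 of the 16 fits. The resting calls of Ifit1, Ifit2 and Ifit3 were each lost without KO array 1, KO array 3, WT array 1 or WT array 2. Ifi27, a small hydrophobic protein of mitochondrial and nuclear membranes, was called in none of the 5 comparisons: its level was 8.87 ± 0.16 in stimulated KO, 8.43 ± 0.29 in stimulated WT, 8.77 ± 0.09 in unstimulated KO and 8.46 ± 0.43 in unstimulated WT cells (SD, n = 4).

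**Figure D3:**
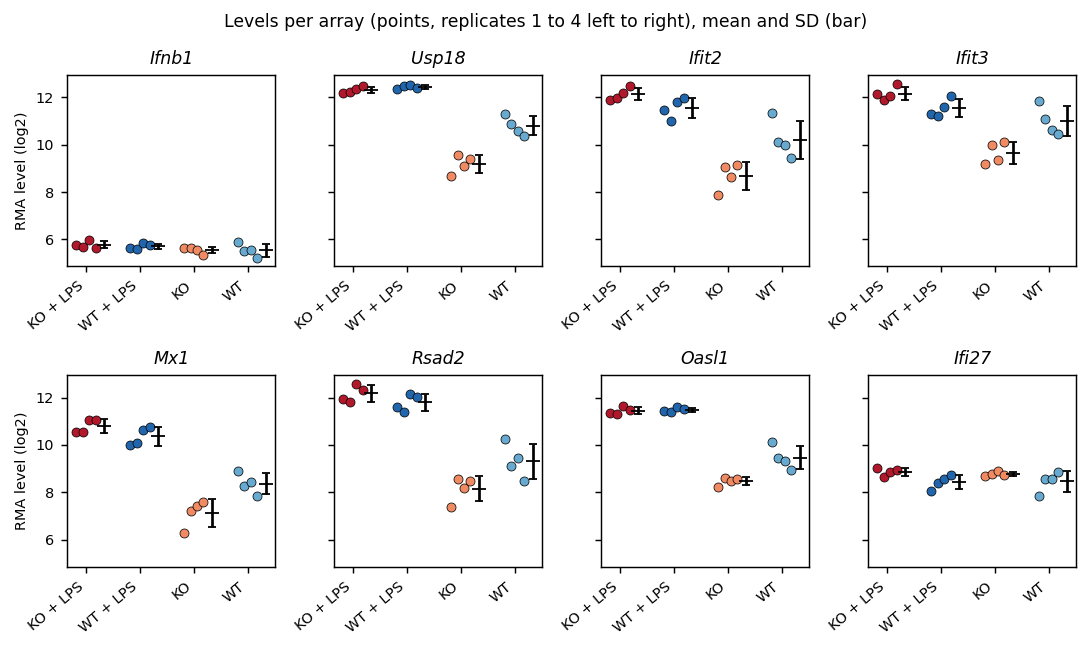
RMA log2 level per array of 8 members, with 4 points per group (replicates 1 to 4 from left to right) and the mean with its SD as a bar, for stimulated KO, stimulated WT, unstimulated KO and unstimulated WT cells. The unstimulated KO points of Usp18, Ifit2, Ifit3, Mx1 and Oasl1 lie below all their unstimulated WT points, those of Rsad2 overlap, and Ifnb1 and Ifi27 show no separation of groups by LPS.

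The restriction factors Mx1, Mx2, Rsad2, Cmpk2, Bst2 and Samd9l act directly on steps of virus replication. All 6 rose with LPS in both genotypes, with median differences of 3.12 in KO cells and 1.59 in WT cells. In unstimulated KO cells 3 of the 6 were lower than in WT cells, Mx1, Mx2 and Samd9l, and 3 had a larger response in KO, Mx1, Mx2 and Cmpk2. Rsad2, which encodes viperin, an enzyme that makes a chain-terminating nucleotide, read 11.96, 11.82, 12.59 and 12.34 in stimulated KO arrays and 11.62, 11.37, 12.14 and 12.05 in stimulated WT arrays. Unstimulated levels of Rsad2 were 7.39, 8.56, 8.18 and 8.47 in KO arrays and 10.26, 9.11, 9.45 and 8.48 in WT arrays. The resting genotypes overlapped, since WT array 4 lay below KO array 2. Rsad2 rose by 4.03 ± 0.31 in KO cells (16.3-fold, adjusted p = 1.175e-08) and by 2.47 ± 0.31 in WT cells (5.55-fold, adjusted p = 4.271e-06), in each genotype the largest rise among the members. Neither its resting difference of -1.17 ± 0.31 (adjusted p = 0.09729) nor its difference in response of 1.56 ± 0.44 (adjusted p = 0.1069) passed the test.

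Mx1, a dynamin-like GTPase that blocks influenza virus, read 10.55, 10.57, 11.03 and 11.05 in stimulated KO arrays and 9.999, 10.06, 10.62 and 10.76 in stimulated WT arrays. At rest the levels were 6.30, 7.22, 7.43 and 7.58 in KO arrays and 8.92, 8.25, 8.44 and 7.86 in WT arrays. KO array 1 stood far below the other unstimulated KO arrays, and every unstimulated KO array lay below every unstimulated WT array. Mx1 rose by 3.67 ± 0.26 in KO cells (12.7-fold, adjusted p = 4.172e-09) and by 1.99 ± 0.26 in WT cells (3.98-fold, adjusted p = 6.751e-06). It was lower in KO at rest (log2 difference -1.23 ± 0.26, adjusted p = 0.02431), a call lost without KO array 1 or any of WT arrays 1 to 3. The response was larger in KO by 1.67 ± 0.37 (adjusted p = 0.03228), a call lost in 7 of the 16 fits. Most inbred laboratory strains are known to carry a defective Mx1 allele, and the array reads the transcript only.

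Mx2, its paralogue, read 9.60, 9.51, 9.94 and 9.82 in stimulated KO arrays and 9.01, 8.73, 9.44 and 8.98 in stimulated WT arrays. In unstimulated cells the levels were 6.27, 6.75, 6.83 and 6.54 in KO arrays and 8.02, 7.60, 7.59 and 6.77 in WT arrays. All stimulated KO arrays were above all stimulated WT arrays, and at rest WT array 4 lay within the range of the KO arrays. Mx2 rose by 3.12 ± 0.21 in KO cells (8.71-fold, adjusted p = 1.994e-09) and by 1.54 ± 0.21 in WT cells (2.92-fold, adjusted p = 9.695e-06). With LPS the genotypes differed by 0.68 ± 0.21, which did not pass over all 16 arrays (adjusted p = 0.1016). Its response was larger in KO by 1.58 ± 0.29 (adjusted p = 0.01392), and this call held in each of the 16 fits that left out 1 array. The resting difference was -0.90 ± 0.21 (adjusted p = 0.04645), a call lost in 13 of those fits. For Cmpk2, a mitochondrial nucleotide kinase whose gene neighbours Rsad2, the difference in response was 1.48 ± 0.33 (adjusted p = 0.03648, lost in 10 of those fits) and the resting difference of -0.99 ± 0.24 did not pass (adjusted p = 0.055).

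The genes of the ISG15 and ubiquitin system, Usp18, Herc6, Trim21, Trim25, Trim30a and Dtx3l, rose with LPS in both genotypes, 6 of 6 in each. Usp18 and Herc6 were lower in unstimulated KO cells, and Usp18, Herc6 and Dtx3l had a larger response in KO. Usp18 removes ISG15 from proteins and restrains the interferon receptor. It read 12.19, 12.23, 12.36 and 12.46 in stimulated KO arrays and 12.34, 12.49, 12.51 and 12.37 in stimulated WT arrays. Without LPS it read 8.67, 9.56, 9.10 and 9.42 in KO arrays and 11.31, 10.89, 10.59 and 10.37 in WT arrays. The lowest WT array was above the highest KO array by more than the SD of either group, and with LPS the genotypes overlapped. The resting difference was -1.61 ± 0.18 (adjusted p = 5.133e-05), the largest among the members and called in 28 of the 29 settings tried, the exception being the 10 arrays in which Xist exceeded Kdm5d. Those settings all use an adjusted p under 0.05, and several of them cannot move the difference, only its spread or the adjustment. Usp18 rose by 3.12 ± 0.18 in KO cells (8.72-fold, adjusted p = 3.301e-10) and by 1.64 ± 0.18 in WT cells (3.11-fold, adjusted p = 9.233e-07). Its responses differed by 1.49 ± 0.26 (adjusted p = 0.01032), a call kept in each of the 16 fits that left out 1 array.

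Trim21, a cytosolic antibody receptor and ubiquitin ligase, read 11.56, 11.65, 11.57 and 11.43 in stimulated KO arrays and 11.52, 11.48, 11.59 and 11.49 in stimulated WT arrays. Its levels at rest were 8.87, 9.48, 9.34 and 9.09 in KO arrays and 9.77, 9.83, 9.60 and 9.42 in WT arrays. The resting genotypes overlapped by KO array 2. Trim21 rose by 2.36 ± 0.12 in KO cells (5.12-fold, adjusted p = 6.416e-11) and by 1.86 ± 0.12 in WT cells (3.64-fold, adjusted p = 7.408e-10). Trim25, the ligase that activates RIG-I, was the 1 member whose rise was smaller in KO cells, at 0.55 ± 0.13 in KO (adjusted p = 0.002619) and 0.75 ± 0.13 in WT (adjusted p = 0.0001186), a difference that did not pass the test (adjusted p = 0.8138). Herc6, the mouse ligase that attaches ISG15, was lower at rest (log2 difference -0.70 ± 0.15, adjusted p = 0.02133), a call lost in 4 of the 16 fits.

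All 4 members of the PARP family, which attach ADP-ribose to proteins, rose with LPS in both genotypes: Parp9, Parp10, Parp12 and Parp14. Parp12 was the 1 member of the family called at rest, with a difference of -0.59 ± 0.12 (adjusted p = 0.01501), a call lost in 2 of the 16 fits. Parp10 read 9.60, 9.80, 9.88 and 9.76 in stimulated KO arrays and 9.38, 9.15, 9.57 and 9.65 in stimulated WT arrays. Unstimulated, it read 8.10, 8.41, 8.37 and 8.16 in KO arrays and 8.77, 8.64, 8.57 and 8.47 in WT arrays. Stimulated WT array 4 overlapped the stimulated KO arrays, and the resting groups did not overlap. Its stimulated difference of 0.32 ± 0.11 did not pass (adjusted p = 0.1885), and its response was larger in KO by 0.67 ± 0.16 (adjusted p = 0.04714), a call lost in 13 of the 16 fits that left out 1 array. For Parp9 the difference in response was 0.74 ± 0.17 (adjusted p = 0.03928), lost in 11 of those fits.

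Of the 3 genes for proteins of nuclear bodies, Sp100, Pml and Daxx, all rose with LPS in KO cells, and Sp100 and Daxx rose in WT cells. Sp100 was lower in unstimulated KO cells (log2 difference -0.57 ± 0.11, adjusted p = 0.01387), a call lost in 2 of the 16 fits, and a further probe set annotated to Sp100 and near-identical predicted copies was not used. Daxx, a histone chaperone, read 10.76, 10.55, 10.95 and 10.91 in stimulated KO arrays and 10.28, 9.94, 10.48 and 10.67 in stimulated WT arrays. Unstimulated levels were 8.94, 9.02, 8.82 and 9.01 in KO arrays and 9.69, 9.36, 9.40 and 9.24 in WT arrays. The resting groups were apart and the stimulated groups overlapped by stimulated WT array 4. Daxx rose by 1.85 ± 0.14 in KO cells (3.59-fold, adjusted p = 8.404e-09) and by 0.92 ± 0.14 in WT cells (1.89-fold, adjusted p = 3.492e-05). Its stimulated difference was 0.45 ± 0.14 (adjusted p = 0.1018) and its difference in response 0.93 ± 0.20 (adjusted p = 0.02531), a call lost in 4 of the 16 fits. Pml, the scaffold of these bodies, rose in KO cells by 0.94 ± 0.21 (adjusted p = 0.001988), and in WT cells its difference was 0.23 ± 0.21 (adjusted p = 0.4588).

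The other induced genes were Xaf1, Tor3a, Lgals3bp and Rtp4. All 4 rose with LPS in KO cells, Xaf1 and Tor3a rose in WT cells, and Tor3a and Rtp4 were lower in unstimulated KO cells. Tor3a, an ATPase of the torsin family, read 11.49, 11.57, 11.63 and 11.57 in stimulated KO arrays and 11.19, 10.96, 11.20 and 11.16 in stimulated WT arrays. Before stimulation it read 9.64, 10.15, 9.71 and 9.73 in KO arrays and 10.9996, 10.50, 10.39 and 10.07 in WT arrays. Every stimulated KO array was above every stimulated WT array, while KO array 2 overlapped the WT arrays at rest. It rose by 1.76 ± 0.15 in KO cells (3.38-fold, adjusted p = 4.685e-08) and by 0.64 ± 0.15 in WT cells (1.56-fold, adjusted p = 0.002768). The stimulated difference was 0.44 ± 0.15 (adjusted p = 0.1706), the resting difference -0.68 ± 0.15 (adjusted p = 0.03292, lost in 6 of the 16 fits that left out 1 array) and the difference in response 1.12 ± 0.21 (adjusted p = 0.01452), the last a call kept in each of them. Rtp4, a chaperone of receptor transport, rose in KO cells by 1.26 ± 0.15 (adjusted p = 2.637e-06) and differed in WT cells by 0.37 ± 0.15 (adjusted p = 0.07141). Lgals3bp, a secreted glycoprotein, rose in KO cells by 0.51 ± 0.16 (adjusted p = 0.02459), a call lost without stimulated KO array 2 or unstimulated KO array 1 or 4.

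**Figure D4:**
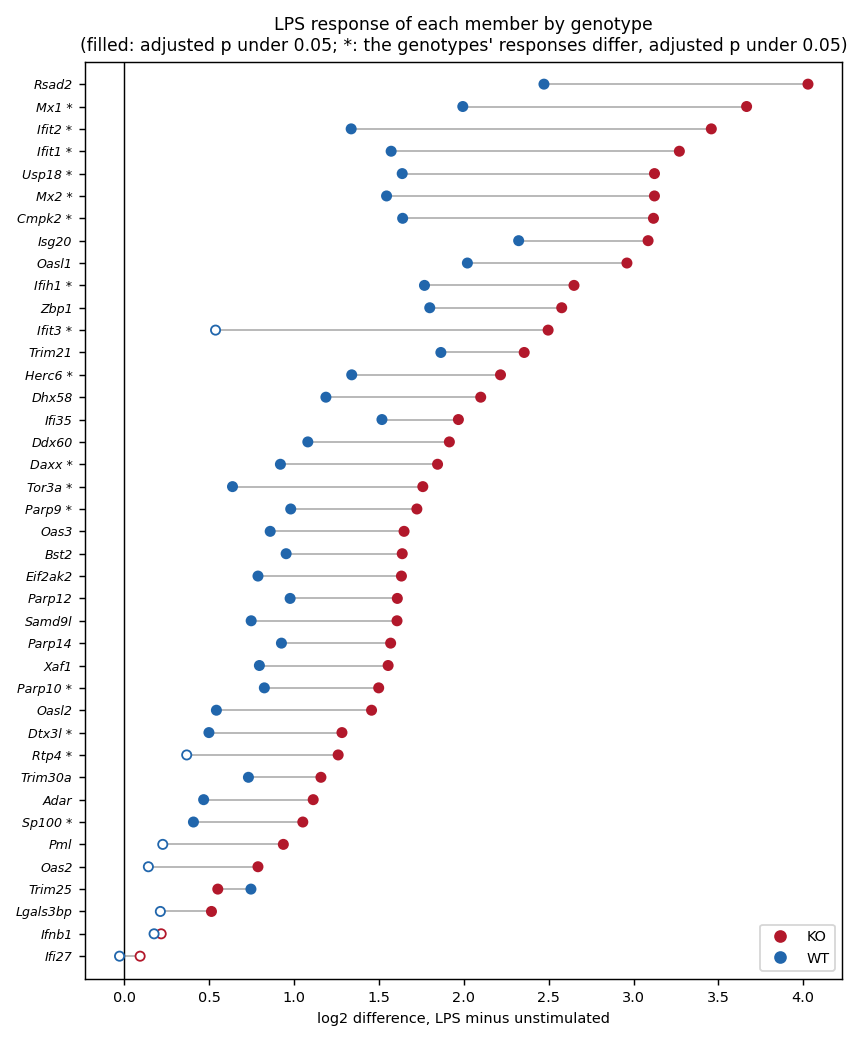
LPS response of each of the 40 measured members, as the log2 difference of stimulated minus unstimulated cells on the x axis, in KO and in WT cells (filled points have an adjusted p under 0.05, and a star marks members whose responses differ between genotypes). The KO point lies to the right of the WT point for 39 members, with Trim25 the exception.

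**Figure D5:**
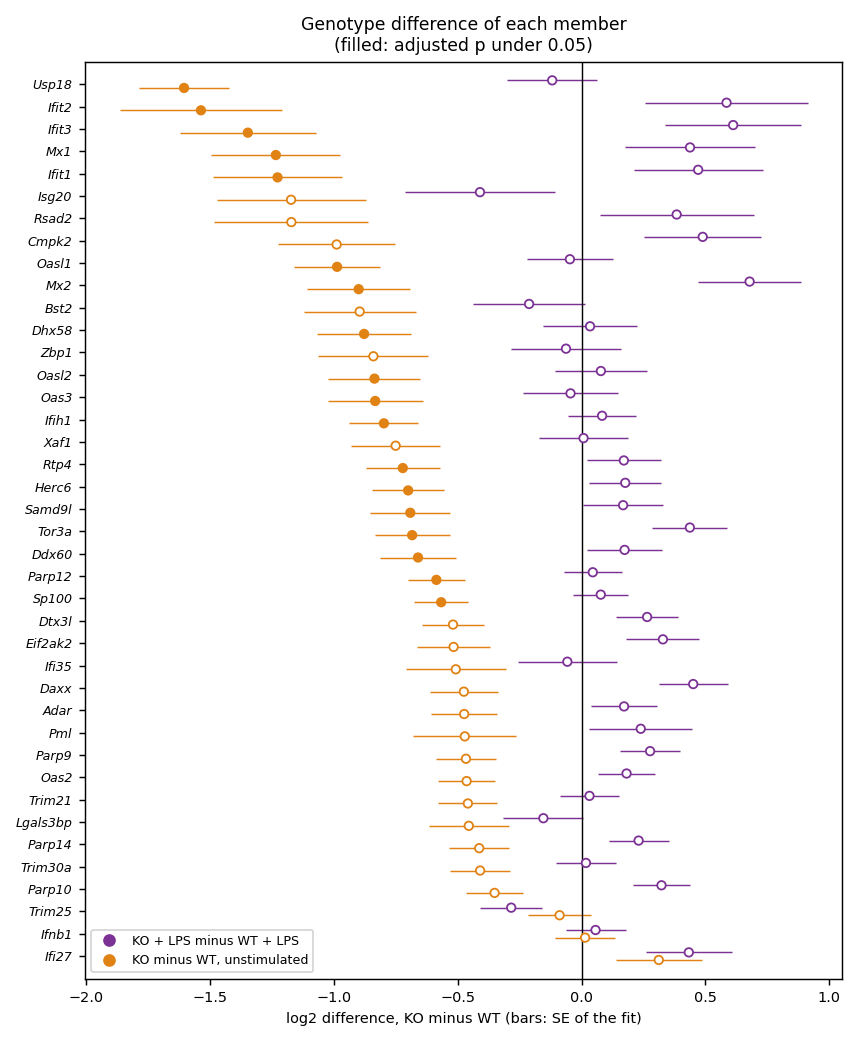
Genotype difference of each of the 40 measured members, KO minus WT in log2 units on the x axis with the SE of the fit as bars, with LPS and without (filled points have an adjusted p under 0.05). Without LPS 38 differences are negative and 18 are called, and with LPS 31 are positive and 0 are called.

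The rest of the pathway was counted from lists of genes that are not members. Of 13 measured genes that sense microbial products and relay the signal, 0 were higher and 2 were lower in unstimulated KO cells: Cd14, the LPS co-receptor (log2 difference -1.20 ± 0.14, adjusted p = 5.133e-05), and Ddx58, which encodes RIG-I (log2 difference -0.69 ± 0.13, adjusted p = 0.01281). With LPS, Mavs and Sting1, adaptors of RNA and DNA sensing, were higher in KO than in WT cells by 0.57 ± 0.10 (adjusted p = 0.002415) and 0.74 ± 0.19 (adjusted p = 0.04049). None of 13 other measured interferon genes was called in any comparison by limma, and between unstimulated KO and WT cells 1 of them had an unadjusted p under 0.05. Of 12 measured receptor and signalling genes, 3 were lower in unstimulated KO cells: Irf7, a transcription factor of interferon genes (log2 difference -1.07 ± 0.21, adjusted p = 0.01445), Stat2 (log2 difference -0.74 ± 0.16, adjusted p = 0.03292) and Irf9 (log2 difference -0.36 ± 0.08, adjusted p = 0.04692). In stimulated KO against stimulated WT cells 0 of the 12 were called, 3 having an unadjusted p under 0.05. The resting difference of the receptor genes was -0.08 ± 0.10 for Ifnar1 (adjusted p = 0.9308) and -0.04 ± 0.12 for Ifnar2 (adjusted p = 0.9707). Among 24 measured interferon-stimulated genes that are not members, 20 rose with LPS in KO cells and 17 in WT cells, 10 were lower in unstimulated KO than in unstimulated WT cells, and 3, Oas1b, Slfn8 and Tap1, had a larger response in KO. In stimulated KO against stimulated WT cells, where 1.26% of all genes were called lower, 2 of these genes were lower: Ifitm6 (log2 difference -1.71 ± 0.33, adjusted p = 0.006713) and Slfn4 (log2 difference -1.62 ± 0.23, adjusted p = 0.000419).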

How the data were processed

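The measurement was messenger RNA level in 16 macrophage samples on 1-channel Affymetrix arrays. The deposited values are log2 levels per probe set, which the authors made by RMA, per the submitters' processing notes, and precision depends on how many arrays there are. RMA sets all arrays to a common distribution, so a change shared by all genes is removed. Array medians lay between 6.76 and 6.86. Of 34760 probe sets, 21640 were annotated to 1 gene, 1321 to several and 11799 are unnamed here, and the brightest probe set stood for each of 19937 genes.

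The 42 members and all gene lists were chosen with earlier results of these data known. All 16 arrays entered a linear model with a mean per group (limma 3.58.1, lmFit and eBayes, R 4.3.3), with 12 residual degrees of freedom. Benjamini-Hochberg adjustment ran over all 19937 genes, and a call is an adjusted p under 0.05. The script was tested on simulated data. Values in every array are given for Ifnb1 and, per comparison, for up to 6 called members with the largest absolute log2 difference, or 4 with the smallest p where none was called. Sting1 and Cgas were found under older names.

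Titles of the samples give the replicate numbers. Deviations from group means of KO and WT arrays with the same number correlated by 0.35, 0.44, 0.16 and 0.36 without LPS and by 0.19, 0.36, 0.37 and 0.52 with LPS, all over 0.1. The titles state no pairing and arrays of different numbers were not compared, so whether the numbers mark pairs was not tested. Over the members alone these correlations were -0.44, 0.14, 0.54 and 0.00 without LPS and -0.35, 0.76, 0.79 and 0.54 with LPS, so the members did not correlate for every number. No arrays were duplicates: differences between 2 arrays of the same group had an SD of 0.235 to 0.546.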

Additional observations from a re-analysis of the deposited data

Results flagged for a closer look

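In 9 of the 160 groups of 4 arrays tested, 1 array lay far from the other 3 for a member, where chance alone gives about 1 in 20. In stimulated KO cells these were array 2 for Bst2 (11.43) and Lgals3bp (12.95) and array 3 for Herc6 (10.91), and in stimulated WT cells array 4 for Samd9l (11.13). In unstimulated KO cells they were array 2 for Oas3 (10.23) and Bst2 (10.10). In unstimulated WT cells they were array 4 for Ddx60 (8.07), array 1 for Zbp1 (10.58) and array 3 for Samd9l (9.56).

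The LPS response differed between genotypes, by the interaction term of the limma fit, for 16 members. The log2 difference in response, KO minus WT, was 0.88 for Ifih1, 1.70 for Ifit1, 2.12 for Ifit2, 1.96 for Ifit3, 1.67 for Mx1, 1.58 for Mx2, 1.48 for Cmpk2 and 1.49 for Usp18. It was 0.88 for Herc6, 0.78 for Dtx3l, 0.74 for Parp9, 0.67 for Parp10, 0.64 for Sp100, 0.93 for Daxx, 1.12 for Tor3a and 0.89 for Rtp4. Of these calls, those of Ifit3, Mx2, Usp18 and Tor3a held in each of the 16 fits that left out 1 array.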

How the results depend on the processing

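Leaving out 1 array gave 37 to 38 rises with LPS in KO cells and 32 to 35 in WT cells. The KO rises of Oas2, Oasl2, Trim25, Pml and Lgals3bp were lost among the 10 arrays with Xist above Kdm5d (33 left), and the WT rises of Oasl2, Adar, Ifit2 and Sp100 with numbers 1 to 3 only (29 left). The count of members lower in unstimulated KO than WT cells, 18 over all 16 arrays, was 1 with the 8 unstimulated arrays alone, 2 with a sex term, 0 among the 10 arrays with Xist above Kdm5d, 1 with numbers 2 to 4 only, 3 at an adjusted p under 0.01 and 2 without KO and WT arrays numbered 1, a setting chosen after seeing the data. It ran from 3 to 23 when 1 array was left out. The count of members higher in stimulated KO than WT cells, 0, was 2 with the 8 stimulated arrays alone, 2 without unstimulated KO and WT arrays numbered 1, and 0 to 1 when 1 array was left out. Members with a larger response in KO, 16, numbered 18 with a sex term and 21 with each array centred on its median, both including all 16, and 0 among arrays with Xist above Kdm5d, 1 with numbers 2 to 4 only, 0 at an adjusted p under 0.01, 5 without KO and WT arrays numbered 1, and 4 to 20 when 1 array was left out. Settings with fewer arrays or a stricter threshold have less power by construction, but counts also differed between settings with the same number of arrays. Numbers 1 to 3 only gave 22 resting calls (median over members -0.825) and 14 response calls. Numbers 2 to 4 only gave 1 resting call (median -0.47) and 1 response call. What part power had in the fewer calls was not tested, nor was the cause of the fewer resting calls with the sex term. The sex term leaves the difference in response itself unchanged and alters only the spread it is tested against. Without WT array 1 the resting Nfat5 difference was -0.44 (exact p = 0.0286), against -0.27 to -0.44 over all single arrays left out.

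With the replicate number as a block, which treats arrays of the same number as belonging together, 24 members were lower in unstimulated KO than WT cells and 19 had a larger response in KO. Of all genes, 1.64% and 2.26% were called in either direction in these comparisons. With the block in fits of 8 arrays, 5 were lower in unstimulated KO cells and 9 were higher in stimulated KO cells. Of all genes, 1.03% and 5.76% were called in either direction in these 2 fits. The block changed no count of rises with LPS (38 in KO and 33 in WT cells). Between stimulated and unstimulated arrays of the same number, deviations correlated by -0.06, 0.43, 0.14 and 0.56 in KO cells. In WT cells the correlations were 0.05, 0.41, 0.43 and 0.25, so only the arrays numbered 1 stayed under 0.1. Of 5915 values of single members under the settings, 63 changed sign while called in neither setting, and no called value changed sign. Several of those settings leave the difference itself unchanged, so no sign could change there. The difference in response was not refitted on its own arrays, since it uses all 16.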
